A study of Homo sapiens with 6 samples.

Results

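The proteasome genes described here were the protein-coding genes of the deposited expression table whose symbols begin with PSMA, PSMB, PSMC, PSMD, PSME, PSMF or PSMG. Of the 16949 genes listed in the table, 46 met that rule, 45 by their symbol in GENCODE 29 and 1 by a newer symbol (PSME3IP1). They comprised 7 alpha and 7 beta subunits of the 20S core, 9 base and 8 lid subunits of the 19S regulatory particle, 4 assembly factors of the core, 3 assembly factors of the 19S particle, 4 activators, 1 inhibitor and 1 immunoproteasome subunit, PSMB10. The remaining 2 genes, PSMC3IP and PSME3IP1, share only the prefix: PSMC3IP, also called HOP2, acts in meiotic recombination, and PSME3IP1 encodes a protein that binds the activator PSME3. PSMA8, PSMB8, PSMB9 and PSMB11, which carry the same prefixes in the annotation, were not analysed here.

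The proteasome degrades proteins tagged with ubiquitin. Its barrel-shaped 20S core is built of stacked rings in which the alpha subunits form the gate and the beta subunits PSMB5, PSMB6 and PSMB7 carry the chymotrypsin-like, caspase-like and trypsin-like activities, while the 19S particle binds ubiquitin chains, removes them and unfolds the substrate with a ring of ATPases. In cells exposed to interferon, PSMB8, PSMB9 and PSMB10 take the places of PSMB5, PSMB6 and PSMB7, and the PSME1-PSME2 activator caps the core, an arrangement known for producing peptides for MHC class I.

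CWR-R1 is a human prostate cancer cell line described as castration-resistant, meaning that it grows at castrate androgen levels. RNA-seq libraries came from CWR-R1 cells carrying SOX2, a transcription factor of stem and progenitor cells (labelled untreated and SOX2 positive, here Control, 3 libraries), and from CWR-R1 cells in which SOX2 was knocked out (labelled SOX2 negative, here SOX2-KO, 3 libraries). The method of the knockout, the number of clones behind it and the number of cultures behind each group are stated in none of the sources used here. The p-values therefore rest on library-to-library spread alone, and that spread may be technical. A difference between the cell populations that was not caused by loss of SOX2 cannot be told apart from the knockout.

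SOX2 itself (chr3:181711924-181714436 in GRCh38) was listed at 55.7, 54.3 and 55.5 CPM (read counts scaled to a common library total) in the Control libraries and at 4.70, 4.56 and 3.83 CPM in the SOX2-KO libraries, a log2 difference of -3.39 (limma, Benjamini-Hochberg adjusted p = 1.65e-08). The CPM steps gave an estimated 20717788 to 25739759 reads per library, so that 3 reads correspond to 0.117 to 0.145 CPM. All 9 prostate luminal markers examined were listed and their summed level lay between 2114 and 2152 CPM in the Control and between 2753 and 2964 CPM in the SOX2-KO libraries. Of 5 fibroblast markers 1 was listed, COL1A1 (4.86 CPM in Control and 1.93 in SOX2-KO), and the other fibroblast markers and haematopoietic markers were not analysed here. The third SOX2-KO library stood apart from the other SOX2-KO libraries in its mitochondrial transcripts, which made up 1.87%, 1.69% and 3.44% of the signal in SOX2-KO replicates 1 to 3 and 3.23% to 3.45% in Control. The part of these differences in the results below was not tested, except that the fits without that library and without mitochondrial genes are given where they changed a call.

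Proteasome transcripts were listed at means from 4.34 CPM (PSMB10) upwards in Control, and more of them were higher than lower in the SOX2-KO cells. Differences were computed by limma on log2(CPM + 1), which understates the change of low genes, and a gene was called higher or lower at an adjusted p under 0.05 over the 15927 genes whose mean reached 1 CPM. All 46 proteasome genes passed that filter. In SOX2-KO cells 25 of them were called higher and 9 lower, and 12 were not called. The contrast was broad, with 25.0% of all genes tested called higher and 32.9% called lower, 57.8% in all. By position of the libraries alone, all 3 SOX2-KO values lay above all 3 Control values for 27 proteasome genes and below them for 11, against 28.2% and 36.3% of all genes tested, 64.5% in all. The median log2 difference over the proteasome genes was 0.14, beside -0.06 over all genes tested.

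The differences were small and precise. The median absolute log2 difference was 0.26 for the proteasome genes and 0.28 for all genes tested, with median standard errors of 0.05 and 0.08. A change of at least 1.5-fold on the log2(CPM + 1) scale was reached by 5 proteasome genes (10.9%), namely PSME1, PSMB1, PSMG4 and PSMA2 upwards and PSMF1 downwards, beside 19.3% of all genes tested. The summed level of the 31 core and 19S subunits was 3196, 3206 and 3179 CPM in Control and 3667, 3634 and 3542 CPM in SOX2-KO. In this sum the SOX2-KO libraries were all above the Control libraries, with the third SOX2-KO library the closest to them.

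**Figure D1:**
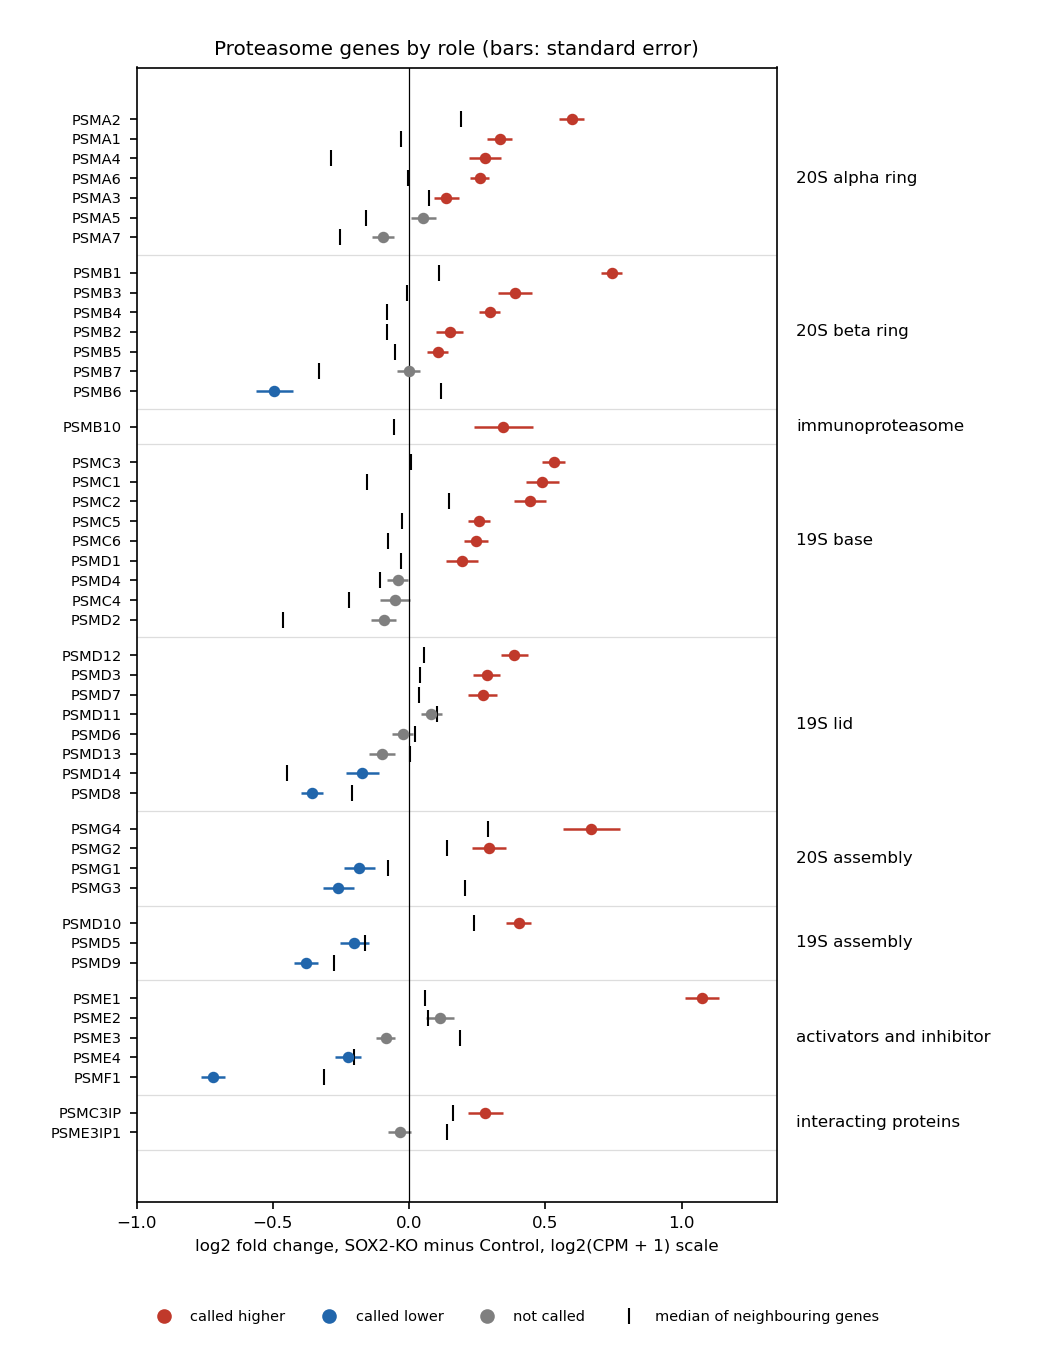
Log2 difference (SOX2-KO minus Control, log2(CPM + 1) scale) of the 46 proteasome genes grouped by role; points are limma estimates with standard errors from 3 libraries per group, colours give the call, and the black tick is the median of the neighbouring genes on the chromosome. PSME1 lies farthest to the right at 1.08 and PSMF1 farthest to the left at -0.72.

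Among the 7 alpha subunits, which form the outer rings and the gate of the core, 5 rose, none was called lower and 2 were not called, with a median log2 difference of 0.26. Of all genes tested, 25.0% were called higher and 32.9% lower. PSMA2 was listed at 75.9, 81.8 and 78.4 CPM in Control and at 125, 115 and 118 CPM in SOX2-KO. No SOX2-KO value came near the Control values, and the mean rose from 78.7 ± 2.94 to 119.5 ± 4.86 CPM (SD, n = 3), 1.52-fold, with a log2 difference of 0.60 ± 0.05 (SE) and an adjusted p of 9.34e-06. The neighbouring genes of PSMA2 had a median of 0.19, and after its subtraction PSMA2 was still called, at 0.41 (adjusted p = 0.000212). A neighbouring transcript read in the same direction, AC010132.3, shares 14.6% of the exonic bases of PSMA2 and was itself called higher (36.7 to 43.7 CPM, adjusted p = 0.0127), so reads of the pair could be split between them.

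PSMA6 had the highest level of the alpha subunits per kb of the principal transcript, 380.5 CPM per kb in Control. Its principal transcript has 1029 bases and its exons combined 6506, and per kb of all exons combined PSMA7 was higher. PSMA6 was listed at 382, 395 and 397 CPM in Control and 463, 473 and 469.8 CPM in SOX2-KO. It rose by a log2 difference of 0.26 ± 0.04 (adjusted p = 0.000279) with well separated groups. PSMA1 was listed at 110.3, 105 and 115 CPM in Control and 145, 135 and 137 CPM in SOX2-KO, a rise of 0.33 ± 0.05 (adjusted p = 0.000284). PSMA4 rose from 78.9 ± 6.13 to 95.8 ± 2.76 CPM, and its log2 difference of 0.28 (adjusted p = 0.00286) stood out from its chromosomal surroundings, where the median log2 difference was -0.29. PSMA3 rose by 0.14 (adjusted p = 0.027), a call that was lost in the fits without Control replicate 1 (0.0769), Control replicate 2 (0.0736) or any of the SOX2-KO replicates 1, 2 and 3 (0.0527, 0.0664 and 0.0519), and after subtraction of its neighbourhood (0.06, adjusted p = 0.297). PSMA5 (56.4 ± 1.38 and 58.5 ± 1.71 CPM) overlapped between the groups. PSMA7 was listed at 125 ± 0.243 CPM in Control and 117 ± 4.98 in SOX2-KO, with every SOX2-KO value below every Control value and an adjusted p of 0.0782, which became 0.0404 without SOX2-KO replicate 2 and 0.0339 without mitochondrial genes.

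Among the 7 constitutive beta subunits, which form the inner rings with the catalytic sites, 5 rose, 1 fell and 1 was not called, with a median log2 difference of 0.15. The shares over all genes tested were 25.0% higher and 32.9% lower. PSMB1, a subunit of the inner ring without a catalytic site, was listed at 80.2, 84.3 and 80.6 CPM in Control and at 138, 139.5 and 135 CPM in SOX2-KO. The groups were separated by far more than their spread, with means of 81.7 ± 2.28 and 137 ± 2.53 CPM, a 1.68-fold rise and a log2 difference of 0.74 ± 0.04 (adjusted p = 1.21e-06). PSMB1 (chr6:170535117-170553341 in GRCh38, minus strand) and PSME1 were the only proteasome genes called when limma tested for a change beyond 1.5-fold, a call made for 2.47% of all genes upwards and for 4.07% downwards, 6.54% in all.

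PSMB6, which carries the caspase-like activity, went the other way. Its Control values were 72.7, 70.8 and 69.7 CPM and its SOX2-KO values 55.6, 45.95 and 49.4 CPM. The mean fell from 71.1 ± 1.51 to 50.3 ± 4.91 CPM, with a log2 difference of -0.49 ± 0.07 (adjusted p = 0.000236), while its chromosomal neighbours had a median of 0.12. The other catalytic subunits moved little. PSMB5, the chymotrypsin-like subunit, was listed at 104 ± 2.07 and 111 ± 2.55 CPM (log2 difference 0.10, adjusted p = 0.0438), a call that was lost without mitochondrial genes (0.0799) and without any of 5 single libraries, all but SOX2-KO replicate 2 (adjusted p between 0.0604 and 0.153). PSMB7, the trypsin-like subunit, was at 79.4 ± 1.61 and 79.4 ± 2.31 CPM (adjusted p = 0.976), with overlapping groups.

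The remaining beta subunits have structural roles. PSMB4 rose from 142 ± 1.05 to 174 ± 5.69 CPM, a log2 difference of 0.30 ± 0.04 (adjusted p = 0.000171). PSMB3 was listed at 25.9, 27.2 and 25.4 CPM in Control and 37.02, 33.01 and 33.7 in SOX2-KO, a rise of 0.39 ± 0.06 (adjusted p = 0.000668), but its row is duplicated under a second identifier with the same values, so its level is uncertain. PSMB2 rose by 0.15 (adjusted p = 0.0272), a call lost without Control replicate 2 (0.0545), Control replicate 3 (0.104), SOX2-KO replicate 1 (0.0576) or SOX2-KO replicate 2 (0.096).

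Levels of different genes were compared per kb of the principal transcript. On that scale PSMB1 and PSMB6 were listed at ratios of 1.01, 1.09 and 1.06 in the Control libraries and 2.28, 2.79 and 2.50 in the SOX2-KO libraries, so that 2 transcripts of the same ring that were nearly level in Control stood 2.52 ± 0.254 to 1 in SOX2-KO. The 13 core subunits without duplicated rows spanned a 25.2-fold range in Control, from PSMA5 at 15.1 to PSMA6 at 380.5 CPM per kb. Their median was 80.001 CPM per kb in Control and 80.98 in SOX2-KO, that of the alpha subunits 59.6 and 80.4, and that of the beta subunits 82.2 and 83.5. The alpha median fell on different genes, PSMA3 in Control and PSMA2 in SOX2-KO. PSMA3 itself went from 59.6 to 65.6 CPM per kb and PSMA2 from 52.9 to 80.4. These levels depend on the transcript chosen as principal, and with the length of all exons combined the mean of the per-library core medians was 36.2 CPM per kb in Control and 41.9 in SOX2-KO, in place of 79.5 and 82.6.

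**Figure D2:**
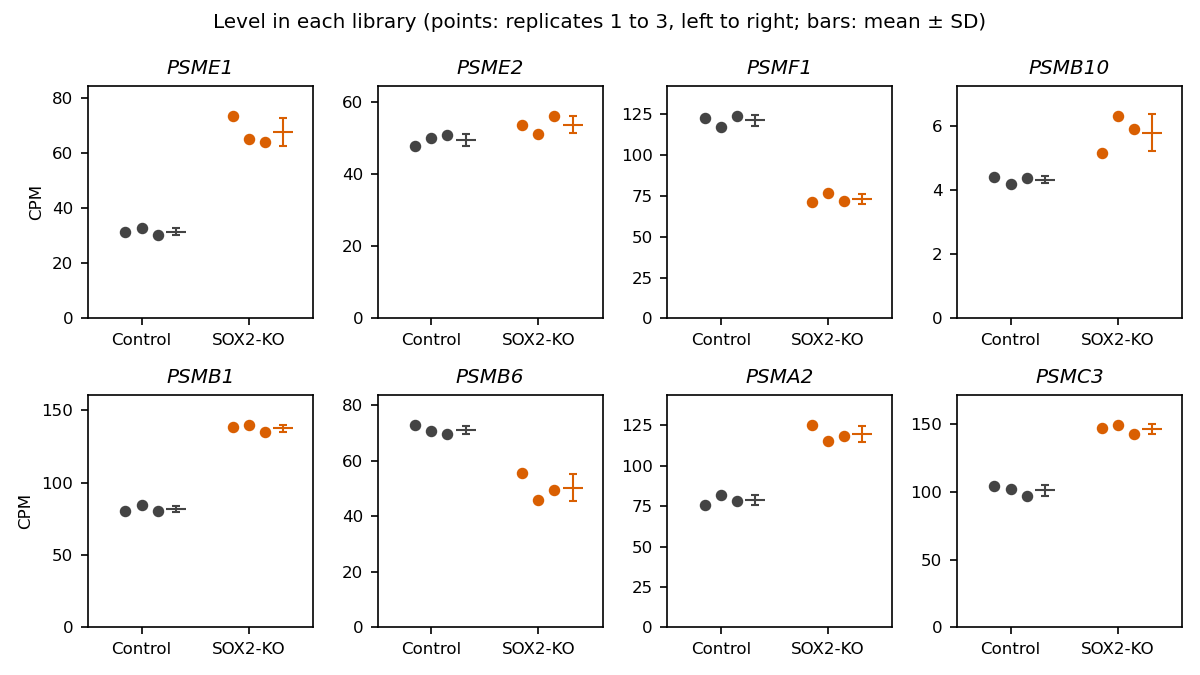
CPM in each of the 3 Control and 3 SOX2-KO libraries for PSME1, PSME2, PSMF1, PSMB10, PSMB1, PSMB6, PSMA2 and PSMC3, with the mean and SD of each group. The libraries of the 2 groups do not overlap in any panel; PSME1 runs from 30.2 to 32.9 CPM in Control and from 64.1 to 73.3 CPM in SOX2-KO.

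The base of the 19S particle holds the 6 ATPases PSMC1 to PSMC6, which unfold substrates and open the gate, and the non-ATPase subunits PSMD1, PSMD2 and PSMD4. Of these 9 genes, 6 rose, none was called lower and 3 were not called, with a median log2 difference of 0.25. Over all genes tested the shares were 25.0% higher and 32.9% lower. PSMC3 was listed at 104, 102 and 96.8 CPM in Control and at 147, 149 and 142 CPM in SOX2-KO. The groups lay far apart, and the mean rose from 101 ± 3.76 to 146 ± 3.49 CPM with a log2 difference of 0.53 ± 0.04 (adjusted p = 1.03e-05) in surroundings whose median was 0.01. PSMC1 rose by 0.49 ± 0.06, from 79.9, 79.2 and 72.8 CPM to 102, 117 and 108 CPM (adjusted p = 0.000128). For PSMC1 75.8% of the exonic bases are covered on the opposite strand by NRDE2, which was called lower (22.8 to 19.5 CPM, adjusted p = 0.0222), and its processed pseudogene PSMC1P1 was called higher (15.98 to 24.01 CPM, adjusted p = 0.0107). The sources used here do not state whether strand was used in counting, so reads of PSMC1 and NRDE2 cannot be told apart where they overlap. PSMC1P1 lies elsewhere, on chromosome 3, and whether reads were shared between it and PSMC1 was not tested.

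PSMC2 rose from 37.3 ± 1.27 to 51.2 ± 3.31 CPM (log2 difference 0.44, adjusted p = 0.000212). PSMC5 and PSMC6 rose less, by 0.26 (adjusted p = 0.000661) and 0.25 (adjusted p = 0.0011). FTSJ3 covers 19.5% of the exonic bases of PSMC5 on the opposite strand, at 36.5% of its level. FTSJ3 was itself called higher (50.9 to 56.8 CPM, limma adjusted p = 0.0265), and reads of the pair cannot be told apart there. PSMC4 was the ATPase without a call (43.1 ± 1.99 and 41.5 ± 1.67 CPM, adjusted p = 0.448), and its row, like that of PSMB3, has a duplicate with the same values. Of the large scaffold subunits, PSMD1 rose from 105 ± 1.36 to 121 ± 10.03 CPM (log2 difference 0.19, adjusted p = 0.0173, and 0.051 in the fit that leaves out Control replicate 3; the log2 difference was 0.13 when SOX2-KO replicate 1 was left out), with SOX2-KO replicate 1 at 132 CPM above the other libraries of its group. PSMD2 had overlapping groups, at 214 ± 6.36 and 201 ± 9.02 CPM (adjusted p = 0.104, and 0.0475 without mitochondrial genes). PSMD2 lies on chromosome 3 with SOX2, starting at 184298709, among genes whose median log2 difference was -0.46, the lowest of all proteasome neighbourhoods. PSMD4, a receptor for ubiquitin chains, overlapped as well (103 ± 2.58 and 99.7 ± 2.07 CPM).

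In the lid, which carries the deubiquitinase PSMD14, 3 of 8 genes rose, 2 fell and 3 were not called, with a median log2 difference of 0.03. Among all genes tested 25.0% were called higher and 32.9% lower, so these counts are no result about the lid. PSMD12 was listed at 81.5, 89.1 and 90.7 CPM in Control and 116, 115 and 112 CPM in SOX2-KO, a rise of 0.39 ± 0.05 (adjusted p = 0.000153). PSMD3 rose by 0.28 (149, 145 and 148 CPM to 193, 177 and 170.1 CPM, adjusted p = 0.00103). PSMD7, the partner of PSMD14 in the lid, rose by 0.27 (80.5 ± 3.84 to 97.3 ± 4.84 CPM, adjusted p = 0.0019). In the other direction, PSMD8 was listed at 158, 150.1 and 147 CPM in Control and at 119, 119.9 and 116 CPM in SOX2-KO, with no overlap and a log2 difference of -0.36 ± 0.04 (adjusted p = 8.35e-05).

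PSMD14, the lid enzyme that removes ubiquitin chains, was listed at 47.3, 51.9 and 51.2 CPM in Control and at 46.2, 45.5 and 41.5 CPM in SOX2-KO, a small gap between the groups. Its log2 difference of -0.17 (adjusted p = 0.0348) lost the call without Control replicate 2 (0.12), Control replicate 3 (0.104), SOX2-KO replicate 2 (0.0516) or SOX2-KO replicate 3 (0.112), and with median-ratio scaling (0.175) or quantile normalisation (0.224). Set against its neighbouring genes, whose median was -0.45, PSMD14 was called higher, by 0.27 (adjusted p = 0.00296). PSMD6 (82.6 ± 1.59 and 81.3 ± 0.88 CPM) and PSMD13 (107 ± 2.26 and 99.8 ± 5.62 CPM, adjusted p = 0.108, and 0.0203 without SOX2-KO replicate 1) overlapped between the groups. PSMD11 did not overlap (100.3 ± 1.86 and 106 ± 2.55 CPM) but was not called (adjusted p = 0.104), and passed the threshold with median-ratio scaling (0.027) and quantile normalisation (0.0258).

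The assembly factors are chaperones that leave or are consumed as the particle matures, and in both heterodimers of the core 1 partner was called higher and the other lower. PSMG1 and PSMG2 form the heterodimer that starts the alpha ring. PSMG2 was listed at 44.7, 40.7 and 43.3 CPM in Control and at 49.9, 56.8 and 51.9 CPM in SOX2-KO, a rise of 0.29 (adjusted p = 0.00293, and 0.0769 after subtraction of its neighbourhood). CEP76, which was not called, covers 13.9% of the exonic bases of PSMG2 on the opposite strand, at 39.7% of its level. PSMG1 was listed at 36.9, 37.8 and 34.6 CPM in Control and at 33.3, 32.01 and 30.7 CPM in SOX2-KO, a log2 difference of -0.18 (adjusted p = 0.0234). Its groups were close, and the call was lost without Control replicate 1 (0.0607), Control replicate 2 (0.0919), SOX2-KO replicate 2 (0.0566) or SOX2-KO replicate 3 (0.0735). It was also lost after subtraction of its neighbourhood (0.191), under median-ratio scaling (0.117) and under quantile normalisation (0.155).

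PSMG3 and PSMG4 form the other core chaperone. PSMG4 was listed at 13.9, 11.1 and 11.99 CPM in Control and at 17.8, 21.4 and 21.4 CPM in SOX2-KO. All SOX2-KO values were higher, and the mean rose 1.64-fold, from 12.3 ± 1.41 to 20.2 ± 2.09 CPM, with a log2 difference of 0.67 ± 0.10 (adjusted p = 0.000537). On the opposite strand SLC22A23 covers 13.3% of the exonic bases of PSMG4, at 165% of its level. SLC22A23 was not called (25.9 to 27.7 CPM, limma adjusted p = 0.196). Since use of strand in counting is not stated, reads of PSMG4 and SLC22A23 cannot be told apart there. PSMG3 fell from 36.6 ± 1.53 to 30.4 ± 1.05 CPM (log2 difference -0.26, adjusted p = 0.00348), while its neighbours had a median of 0.20 and its antisense transcript PSMG3-AS1, which overlaps 3.06% of its exonic bases, rose from 5.94 ± 0.766 to 12.7 ± 1.72 CPM (adjusted p = 0.000157). The difference between the partners was not tested as such.

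PSMD5, PSMD9 and PSMD10 help to build the 19S base. PSMD10, also called gankyrin, was listed at 36.7, 38.2 and 38.4 CPM in Control and at 49.5, 50.7 and 50.4 CPM in SOX2-KO, a rise of 0.40 ± 0.05 (adjusted p = 8.16e-05). PSMD9 fell, from 99.1, 98.4 and 98.1 CPM to 71.9, 77.1 and 78.1 CPM, a log2 difference of -0.38 ± 0.04 (adjusted p = 9.13e-05). PSMD5 fell from 65.9 ± 3.36 to 57.2 ± 2.32 CPM (-0.20, adjusted p = 0.00976). After subtraction of the median of their neighbours, PSMD9 (adjusted p = 0.111) and PSMD5 (0.549) were no longer called, and PSMD5 was not called with median-ratio scaling either (0.0591).

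The regulators that dock on the core held both ends of the range. PSME1 and PSME2 together form the interferon-inducible activator PA28, and their genes lie close together on chromosome 14. RefSeq promoter sequences (GRCh38.p14, from 250 bases before to 50 bases after the start) are printed for this pair because the partners of a single complex differed in response. Capitals mark matches to an interferon-stimulated response element, searched on both strands as GAAA repeated after a gap of any 2 bases (TTTC repeated in the same way on the other strand), and the windows are chr14:24135944-24136243 (plus strand, PSME1) and chr14:24146561-24146860 (minus strand, PSME2).
PSME1: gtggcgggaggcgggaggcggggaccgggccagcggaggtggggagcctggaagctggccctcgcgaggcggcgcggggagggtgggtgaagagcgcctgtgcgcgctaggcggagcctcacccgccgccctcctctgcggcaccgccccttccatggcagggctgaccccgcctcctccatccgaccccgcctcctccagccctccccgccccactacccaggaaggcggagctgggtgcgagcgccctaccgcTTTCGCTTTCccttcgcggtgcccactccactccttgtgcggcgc
PSME2: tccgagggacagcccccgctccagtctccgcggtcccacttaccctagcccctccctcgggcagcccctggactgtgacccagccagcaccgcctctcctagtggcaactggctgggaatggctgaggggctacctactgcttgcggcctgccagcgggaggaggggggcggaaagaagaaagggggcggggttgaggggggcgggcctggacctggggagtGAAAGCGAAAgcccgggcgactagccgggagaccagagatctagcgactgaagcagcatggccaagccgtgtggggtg

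PSME1 (chr14:24136158-24138967 in GRCh38) was listed at 31.4, 32.9 and 30.2 CPM in Control and at 73.3, 65.1 and 64.1 CPM in SOX2-KO. Every SOX2-KO library was above every Control library by a wide margin, and the mean rose 2.15-fold, from 31.5 ± 1.37 to 67.5 ± 5.03 CPM, a log2 difference of 1.08 ± 0.06 (adjusted p = 2e-06). PSME2 was listed at 47.7, 49.9 and 50.95 CPM in Control and at 53.7, 51.2 and 56.01 CPM in SOX2-KO. Its groups were narrowly separated, with a log2 difference of 0.11 ± 0.05 that was not called (adjusted p = 0.0884) except with median-ratio scaling (0.0198) and quantile normalisation (0.0152). Per kb, PSME1 stood at 0.917, 0.9196 and 0.826 times PSME2 in the Control libraries and at 1.91, 1.77 and 1.598 times in the SOX2-KO libraries. Both printed promoters hold the response element letters, and the neighbouring genes of the pair had median log2 differences of 0.06 and 0.07.

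PSME3 encodes the related nuclear activator and had the highest level of the 5 regulators per kb of the principal transcript. That level was 186.3 CPM per kb in Control, beside 35.3 for PSME2, the next. The principal transcript of PSME3 has 998 bases and its exons combined 5152, so the gap and the runner-up depend on the length chosen. PSME3 was listed at 186, 186 and 185 CPM in Control and 179, 173 and 173 CPM in SOX2-KO. All SOX2-KO values were lower, and the log2 difference of -0.09 was not called (adjusted p = 0.0584), although it was without SOX2-KO replicate 1 (0.0406), without mitochondrial genes (0.0255) and after subtraction of its neighbourhood (0.000559). PSME4, which encodes the activator PA200, was listed at 115, 115 and 121 CPM in Control and at 105, 99.4 and 95.04 CPM in SOX2-KO, and fell by 0.22 on the log2 scale (adjusted p = 0.00324). That difference equalled the median of its neighbours (-0.20) within its error, and after subtraction it was -0.02 (adjusted p = 0.8).

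PSMF1, which encodes PI31, a protein first described as an inhibitor of the core, was listed at 123, 117 and 124 CPM in Control and at 71.4, 76.6 and 71.6 CPM in SOX2-KO. The groups were far apart, and the mean fell from 121 ± 3.51 to 73.2 ± 2.92 CPM, a log2 difference of -0.72 ± 0.04 (adjusted p = 2.7e-06) and the largest decrease among the proteasome genes. PSMF1 lies at chr20:1113263-1189415, where the neighbouring genes had a median of -0.31. Over the other 15 alternative fits apart from the 1.5-fold test, PSMF1 and PSME1 kept their calls.

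PSMB10, the immunoproteasome subunit that takes the place of PSMB7, had the lowest level of all proteasome genes per kb of the principal transcript. That level was 3.56 CPM per kb in Control, and per kb of all exons combined PSMG4 was lower. PSMB10 was listed at 4.41, 4.21 and 4.399 CPM in Control and at 5.18, 6.32 and 5.92 CPM in SOX2-KO. The groups did not overlap, and the log2 difference was 0.35 ± 0.11 (adjusted p = 0.0213). The call was lost without Control replicate 2 (0.0641), Control replicate 3 (0.0502), SOX2-KO replicate 2 (0.0784) or SOX2-KO replicate 3 (0.0504). Per kb, PSMB10 stood at 4.40% of PSMB7 in Control and at 5.89% in SOX2-KO, so the constitutive transcript was in large excess in both groups. AC040162.1, which overlaps 34.8% of the exonic bases of PSMB10 on the same strand at 72% of its level, was not called, and reads of the pair could be split between them.

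Promoter windows were found in RefSeq for 40 of the 46 genes, with 50 windows in all because some genes have several starts. The genes without an entry were PSMA7, PSMB1, PSMB6, PSMB7, PSMD4 and PSMG3. Letters of the interferon-stimulated response element (GAAA, any 2 bases, GAAA, either strand) were found in 6 of the 50 windows, 12%, beside 3.57% of all 35116 promoters in the table and 2.72% of the promoters of the genes tested. The 30 bases around each match are printed, with the match in capitals, because they show which genes hold the element and how alike the matches are.
PSME1: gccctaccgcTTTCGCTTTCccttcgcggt
PSME2: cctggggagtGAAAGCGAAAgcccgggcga
PSMB10: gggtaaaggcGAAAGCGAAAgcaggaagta
PSMG4: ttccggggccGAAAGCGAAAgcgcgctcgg
PSMB4: tcgtctacagGAAAAAGAAAgaaatgacac
PSMA4: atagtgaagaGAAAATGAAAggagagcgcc

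The PSME2, PSMB10 and PSMG4 matches read GAAAGCGAAA and begin 28, 21 and 33 bases before the start, and the PSME1 match reads the same on the opposite strand, 5 bases after it. PSMB4 and PSMA4 hold other spacer letters, at positions -68 and -240. The 6 matches lie in 5 of the 31 windows of genes called higher, in 0 of the 8 windows of genes called lower and in 1 of the 11 windows of genes not called. The antioxidant response element is read by NFE2L1 and its relatives, and its core was searched in a loose form, TGANNNNGC on either strand. That pattern was found in 29 of the 50 windows (58%) and in 41.8% of all promoters. It matched in 17 of the 31 windows of genes called higher and 6 of the 8 of genes called lower. With so many letters left free, a match does not show the element itself. The SOX core ACAANG was found in 24% of the proteasome windows and in 28% of the promoters of the genes tested, CCAAT in 44% and 34.8%, and the GC box GGGCGG in 70% and 65.5%. These are matches of letters in a short window, counted on both strands with overlaps allowed, and they say nothing of binding.

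The log2 differences were then set beside those of neighbouring genes. For each gene the median log2 difference of the 20 tested genes on either side was taken as its neighbourhood. Over the 46 proteasome genes, gene and neighbourhood had a Pearson correlation of 0.46 (Spearman 0.45), and over 15918 genes tested a Pearson correlation of 0.29. These are descriptions over genes measured in the same libraries. Of the 9 genes called lower, 7 lay in neighbourhoods with a median below 0, PSMB6 and PSMG3 being the others, and of the 25 called higher 13 lay in neighbourhoods above 0. In all, 33 of the 46 genes were above their neighbourhood and 13 below it. No such counts by neighbourhood were taken over all genes tested, so these have no share beside them. With the neighbourhood subtracted 28 of the 46 were called higher and 6 lower, beside 27.2% and 26.9% of all genes in that fit. PSMB7, PSMD2, PSMA5, PSMC4 and PSMA7, which were not called as measured, were called higher on that scale, by 0.33 (adjusted p = 0.000231), 0.37 (0.000498), 0.21 (0.00663), 0.17 (0.0293) and 0.16 (0.011). PSMF1 (-0.41), PSMA2 (0.41), PSMG4 (0.38), PSMC2 (0.30), PSMD10 (0.16) and PSMD8 (-0.15) were still called but changed less, and PSMA4 (0.57), PSMG3 (-0.46) and PSMB2 (0.23) changed more. What sets the neighbourhood medians apart from 0 was not tested.

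The 2 genes that share only the prefix are not parts of the particle. PSMC3IP rose from 53.2 ± 1.68 to 64.9 ± 5.78 CPM (log2 difference 0.28, adjusted p = 0.00536, and 0.18 after subtraction of its neighbourhood). MLX, which covers 29.9% of its exonic bases on the opposite strand, rose as well (70.9 to 81.0 CPM, adjusted p = 0.00326). PSME3IP1 was not called (75.9 ± 1.88 and 74.1 ± 1.94 CPM, adjusted p = 0.508). Without these genes the counts were 24 higher, 9 lower and 11 not called of 44.

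**Figure D3:**
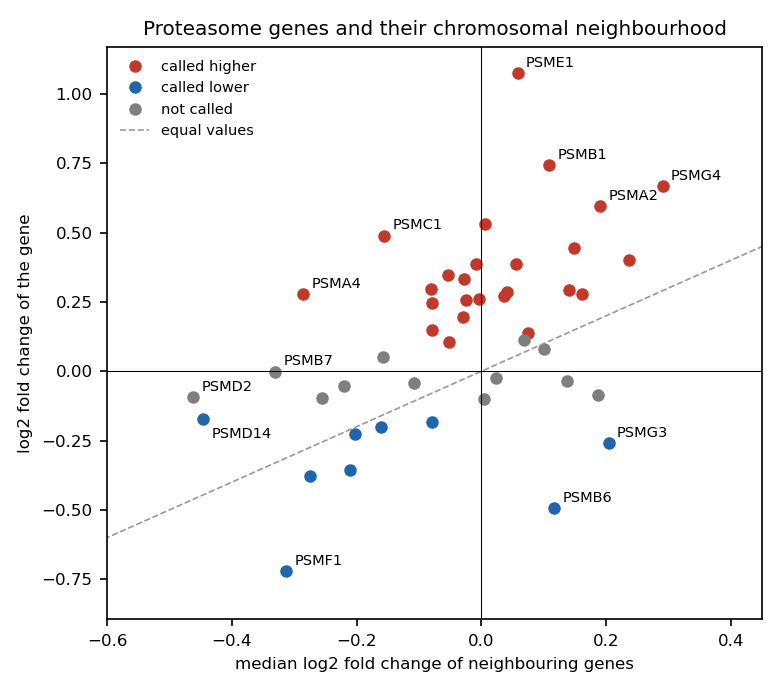
Log2 difference of each of the 46 proteasome genes against the median log2 difference of its 20 tested neighbours on either side (both SOX2-KO minus Control, log2(CPM + 1) scale). Neighbourhood medians run from -0.46 to 0.29, and PSME1, PSMB1 and PSMB6 lie far from the values of their neighbours.

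Of 46 genes that work with the proteasome, 12 rose, 17 fell and 17 were not called, with a median log2 difference of -0.08. These shares lie near those of all genes tested (25.0% higher and 32.9% lower), and so do those of the lists of cofactors and of the NFE2L1 pathway that follow, so the counts are no result about these lists. Among 13 cofactors that bind the particle, 3 rose and 5 fell. SEM1, the smallest subunit of the lid, was listed at 38.9, 39.98 and 43.2 CPM in Control and at 58.6, 55.5 and 56.6 CPM in SOX2-KO, a rise of 0.47 (adjusted p = 7.59e-05). The ubiquitin ligase UBE3C rose by 0.20 (adjusted p = 0.00132), and the deubiquitinase USP14 by 0.17 (adjusted p = 0.00348), which did not exceed its neighbourhood (-0.05 after subtraction). ECPAS, a scaffold of the 26S particle, fell from 269.5 ± 4.24 to 205 ± 7.91 CPM (-0.40, adjusted p = 4.09e-05), the thioredoxin-like TXNL1 fell by 0.20 (adjusted p = 0.00313), and ZFAND5, an activator of degradation, fell by 0.44 (adjusted p = 3.21e-05, and 0.387 after subtraction of its neighbourhood). The ubiquitin receptor ADRM1 (73.5 ± 4.11 and 69.3 ± 5.26 CPM, adjusted p = 0.286) and FBXO7, which binds PSMF1 (93.8 ± 3.40 and 102 ± 4.78 CPM, adjusted p = 0.0565), were not called, although FBXO7 passed without Control replicate 1 (0.0386) or SOX2-KO replicate 1 (0.0235), with median-ratio scaling (0.0074) or quantile normalisation (0.017), with the filter at 5 CPM (0.0499) and after subtraction of its neighbourhood (0.026).

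NFE2L1 is the transcription factor that raises proteasome genes together when proteasome activity is short, and it is activated by the protease DDI2 after extraction from the endoplasmic reticulum by VCP. Among 11 genes of its pathway 2 rose and 4 fell. NFE2L1 itself was listed at 452, 419.6 and 433 CPM in Control and 368, 435 and 411 CPM in SOX2-KO, with overlapping groups and no call (adjusted p = 0.175), although after subtraction of its neighbourhood it was called lower, at -0.24 (0.0048). DDI2 was listed at 256, 275 and 276 CPM in Control and at 179, 189 and 169 CPM in SOX2-KO, a log2 difference of -0.58 (adjusted p = 1.75e-05). Also lower were the related factor NFE2L2 (83.1 ± 2.75 to 60.8 ± 1.30 CPM, adjusted p = 3.3e-05, and 0.0551 after subtraction of its neighbourhood) and the ligase SYVN1 (-0.46, adjusted p = 0.000139). The binding partner MAFG rose by 0.50 (adjusted p = 0.000162) and FBXW7, a ligase adaptor that marks NFE2L1 for turnover, by 0.17 (adjusted p = 0.0166). VCP was not called (243 ± 6.52 and 237 ± 23.7 CPM, adjusted p = 0.651), but was called lower without SOX2-KO replicate 1 (-0.12, adjusted p = 0.0329) and higher after subtraction of its neighbourhood (0.24, adjusted p = 0.00909).

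Genes of ubiquitin supply and delivery moved in both directions, with 5 of 13 higher and 6 lower, beside 25.0% and 32.9% of all genes tested. The polyubiquitin gene UBB was listed at 223, 227 and 222 CPM in Control and at 407, 408 and 382 CPM in SOX2-KO, a rise of 0.83 (adjusted p = 7.08e-07), and UBA1, the main ubiquitin-activating enzyme, rose from 203 ± 12.1 to 344 ± 24.8 CPM (0.76, adjusted p = 1.17e-05). RPS27A, a ubiquitin fused to a ribosomal protein, rose by 0.41 (adjusted p = 3.98e-05). UBA6, another activating enzyme, was not called (102 ± 7.65 and 94.4 ± 4.75 CPM, adjusted p = 0.151, 0.0435 without Control replicate 1, and 0.00185 after subtraction of its neighbourhood).

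UBQLN1 and UBQLN4, members of the ubiquilin family of shuttle factors that carry ubiquitylated proteins to the particle, fell. UBQLN1 was listed at 324, 336 and 346 CPM in Control and at 196, 193 and 183 CPM in SOX2-KO, a log2 difference of -0.81 (adjusted p = 1.15e-06), and UBQLN4 at 162, 149 and 148 CPM and at 101, 102 and 97.7 CPM (-0.61, adjusted p = 8.14e-06). Their relative UBQLN2 was not called (64.05 ± 3.82 and 65.3 ± 1.11 CPM, adjusted p = 0.665). FAF1, a cofactor of VCP, had the largest decrease of these genes, from 216 ± 2.20 to 118 ± 3.99 CPM (-0.86, adjusted p = 5.09e-07). After subtraction of the neighbourhood UBQLN1 (-0.44), UBQLN4 (-0.34), DDI2 (-0.37), ECPAS (-0.13) and ERAP1 (-0.18) were still called lower, by less than as measured, while RPS27A (0.64) and TXNL1 (-0.30) moved farther from 0. For UBQLN1, UBQLN4 and FAF1 no libraries overlapped between the groups.

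Of 9 genes of peptide loading, which use the products of the immunoproteasome, 2 were called higher, 2 lower and 5 were not called. Among all genes tested 25.0% were called higher and 32.9% lower, so these counts are no result about the list. The peptide transporter subunit TAP2 rose from 14.6 ± 2.41 to 25.05 ± 7.41 CPM (adjusted p = 0.00999), its values in SOX2-KO ranging from 19.6 to 33.5 CPM, whereas its partner TAP1 was low in both groups (2.32 ± 0.185 and 2.54 ± 0.170 CPM, adjusted p = 0.535). The aminopeptidase ERAP2 rose from 0.539 ± 0.0421 to 1.70 ± 0.294 CPM (adjusted p = 0.0012), but it passed the filter at a mean of 1 CPM only through its SOX2-KO values. ERAP1 fell from 23.1 ± 0.405 to 17.1 ± 0.309 CPM (adjusted p = 0.000339). NLRC5, the activator of MHC class I genes, fell from 2.102 ± 0.238 to 1.13 ± 0.230 CPM (adjusted p = 0.00974). B2M, the light chain of MHC class I, was not called (83.1 ± 2.45 and 78.3 ± 2.04 CPM, adjusted p = 0.119; called higher after subtraction of its neighbourhood, 0.21 with adjusted p = 0.00411), nor was TAPBP (9.58 ± 1.51 and 13.4 ± 5.94 CPM, adjusted p = 0.284), which passed without SOX2-KO replicate 2 (0.71, adjusted p = 0.00801).

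**Figure D4:**
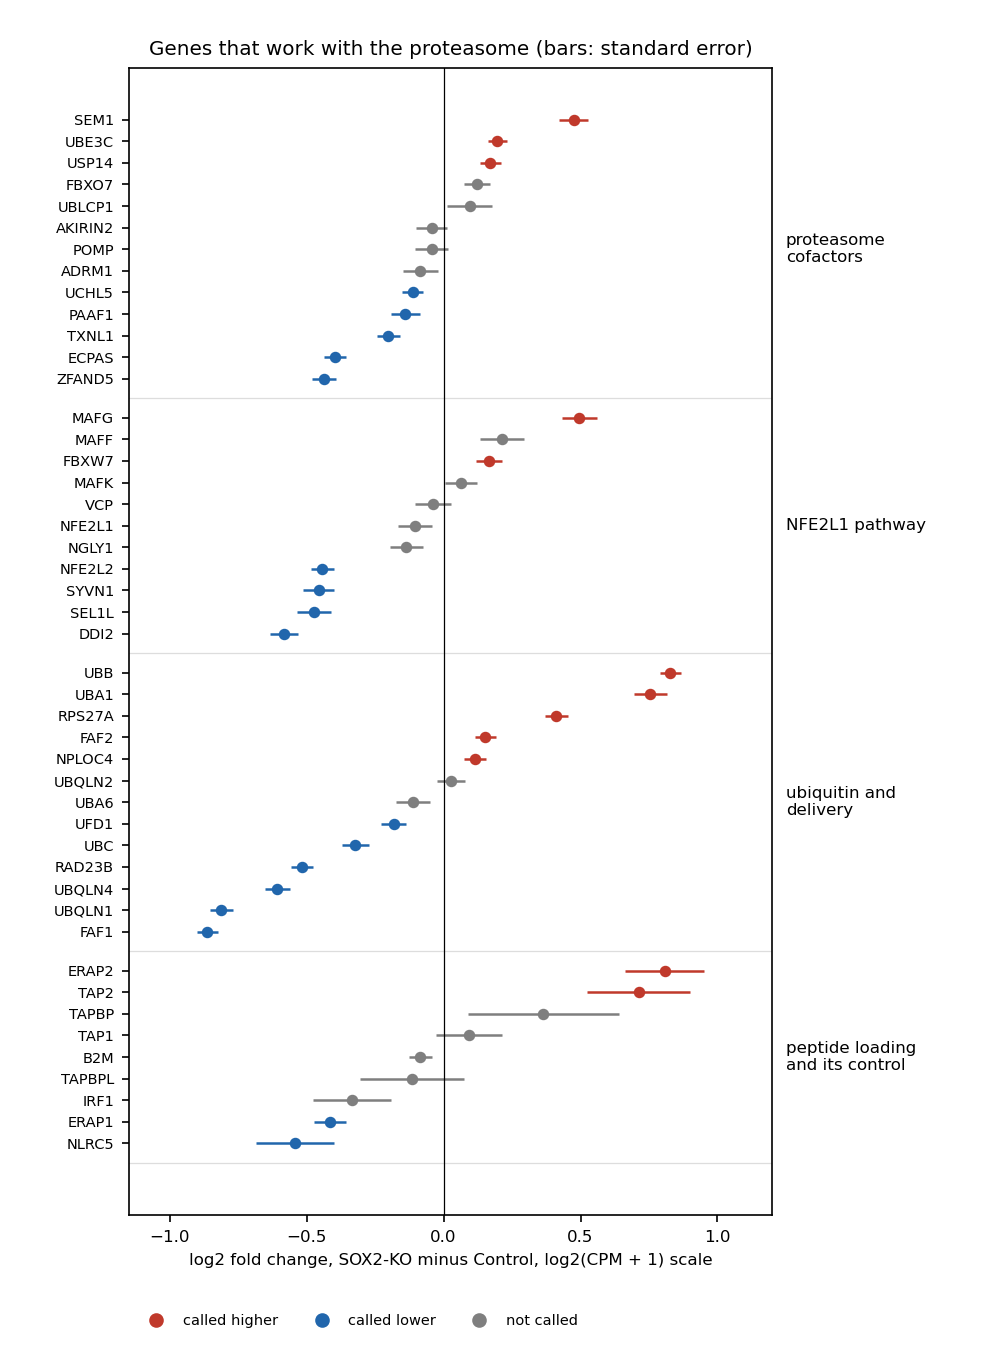
Log2 difference (SOX2-KO minus Control, log2(CPM + 1) scale) with standard error of 46 genes that work with the proteasome, grouped as cofactors, the NFE2L1 pathway, ubiquitin and delivery, and peptide loading. UBB lies at 0.83 and FAF1 at -0.86, the ends of the range.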

How the data were processed

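Expression values in CPM per Ensembl gene were deposited by the authors for 6 libraries. Tools listed without a role, per the submitters' processing notes, were kallisto 0.43.1, STAR, edgeR 3.22.2, Trimmomatic 0.38, CASAVA 1.8, Picard, SAMtools and FastQC. The same notes list hg38 and GRCh38.p12 as builds, and strandedness is not given in the sources used here. Only 26.5% to 28.4% of values per library were whole multiples of 1 read within 0.001 read, so reads were not recovered and no count test was run; the depths are estimates from these steps and cover counting error only.

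Of the 16949 identifiers, 16010 were named through GENCODE 29, and 664 genes shared their values with another gene. limma 3.58.1 (R 4.3.3) was fitted to log2(CPM + 1) over the 15927 genes whose mean reached 1 CPM, with Benjamini-Hochberg adjustment over all of them, after the code was tested on simulated data. The contrast was SOX2-KO minus Control, 3 libraries each. All proteasome genes are named, most fully the regulators, PSMB10 and, per role, up to 3 called higher and up to 3 called lower with the smallest p. Named from each partner list are up to 3 called higher and up to 3 called lower with the smallest p and up to 2 not called with the highest mean, besides SOX2, TAP1 and TAP2. The proteasome genes and the partner lists were chosen with earlier results of these data known, and some partner and marker genes are not reported here. Alternatives were other pseudocounts (0.1 and 0.5), filters (none and 5 CPM), scalings, exon lengths, a replicate block, leaving out each library, leaving out mitochondrial genes, a 1.5-fold minimum and subtraction of the neighbourhood median.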

Additional observations from a re-analysis of the deposited data

How the results depend on the processing

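Over the 15 alternative fits other than the 1.5-fold minimum, 18 of the 25 proteasome genes called higher and 4 of the 9 called lower (PSMB6, PSMD8, PSMF1 and PSMG3) kept their calls in every fit. The 1.5-fold minimum left 2 proteasome genes higher and 0 lower, and 1 partner gene higher and 2 lower, since it asks for a larger change. Leaving out each library gave 21 to 23 proteasome genes higher and 7 to 11 lower, and 11 to 13 partner genes higher and 15 to 18 lower. In those fits 22.1% to 24.4% of all genes were called higher and 28.9% to 32.5% lower. Median-ratio scaling gave 27 higher and 6 lower, quantile normalisation 27 and 7, and the fit without mitochondrial genes 24 and 12. Over all genes the main fit gave 3976 higher and 5234 lower. Median-ratio scaling gave 4579 and 4522 over all genes, quantile normalisation 4670 and 4498, and the fit without mitochondrial genes 3830 and 5405. The median log2 difference of the proteasome genes was 0.20 with median-ratio scaling, 0.22 after subtraction of the neighbourhood, 0.19 with quantile normalisation, and 0.13 to 0.165 without single libraries. With exon union lengths the core median was 36.21 CPM per kb in Control and 41.9 in SOX2-KO, and the PSMB10 to PSMB7 ratio was 0.05273 and 0.07054. Replicate numbers did not pair the samples (correlations of same-numbered libraries -0.0446, 0.0383 and -0.0135), and the replicate block gave 23 proteasome genes higher and 8 lower, without PSMA3 (adjusted p = 0.0566), PSMB5 (0.0677) and PSMD14 (0.0624). With that block 23.7% of all genes were called higher and 31.1% lower. With a pseudocount of 0.1 ERAP2 was at 1.485 and NLRC5 at -0.85.

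Direction reversed with the neighbourhood subtracted for ADRM1 (0.1642), B2M (0.2062), PSMA7 (0.1598), PSMB7 (0.3288), PSMC4 (0.1686), PSMD11 (-0.02027), PSMD14 (0.2748), PSMD2 (0.3684), PSMD4 (0.06547), UBQLN2 (-0.1022), USP14 (-0.05217) and VCP (0.2438). With median-ratio scaling and then quantile normalisation, it reversed for PSMB7 (0.0558 and 0.04496), PSMC4 (0.005166 and 0.02563), PSMD6 (0.0347 and 0.02441), PSME3IP1 (0.02277 and 0.01853) and VCP (0.02052 and 0.00635), and with median-ratio scaling alone for PSMD4 (0.01583). Without single libraries UBQLN2 ranged from -0.01709 to 0.06753, PSMB7 from -0.025 to 0.01484 and VCP from -0.1184 to 0.005145. The cause was not tested.

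PSMB10, with the lowest values of the proteasome genes, lay far above the 3-read floor in every library, and the 3 libraries per group set the precision of the calls.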
